A study of Rattus norvegicus with 9 samples.

Results

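The early response to unloading was examined in the rat soleus, a slow postural muscle of the hindlimb, by setting muscle from rats suspended for 2 days against muscle from control rats. These samples were chosen by their titles and make up 6 of the 9 samples of the series, 3 control and 3 suspended for 2 days. The remaining 3 came from rats suspended for 7 days and are used here for comparison. All were male Sprague-Dawley rats aged 6 months. Suspended rats hung by a tail device that kept the hindlimbs off every surface, and control rats were housed with free access to food and water. The labels do not say whether control rats also received the anaesthesia and the tail device. They also do not say whether the 3 replicates of a group were separate animals or whether animals were pooled, and the p-values cover the spread among arrays, which may be technical. RNA came from whole muscle, so fewer cells of a type and less of a miRNA per cell cannot be told apart.

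MicroRNAs (miRNAs) are short RNAs of which bases 2 to 8, the seed, pair with messenger RNAs and lower their translation or stability. Striated muscle has its own set, which includes miR-1, miR-133a and miR-206, and slow fibres carry miR-499 within a myosin heavy chain gene. In unloaded soleus, fibres shrink and part of the slow fibre programme is replaced by a faster one. Other miRNAs bear on dividing myoblasts, vessels, blood cells and fibroblasts, all of which are present in whole muscle.

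The miRNAs the results turn on are shown first, as the target sequences in the deposited scanner files, 5′ to 3′, with the seed in capitals. The first 4 carried the lowest p-values among probes that were lower after 2 days, and miR-222 and miR-221 share a seed:
miR-333: gUGGUGUGcuaguuacuuuu
miR-505: gUCAACACuugcugguuucc
miR-222: aGCUACAUcuggcuacugggucuc
miR-221: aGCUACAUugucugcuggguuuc
The next 5 share the seed of the miR-17 family and come from different genomic clusters:
miR-17: cAAAGUGCuuacagugcagguagu
miR-20a: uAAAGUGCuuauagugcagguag
miR-20b: cAAAGUGCucauagugcaggu
miR-106b: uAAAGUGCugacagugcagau
miR-93: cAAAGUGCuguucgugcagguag
The next 4 had higher means after 2 days, and let-7a is shown beside miR-98 because their targets differ by 2 edits:
MM_264: gACCCAGAggcgugggcacaaa
miR-10a: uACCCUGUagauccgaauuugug
miR-189: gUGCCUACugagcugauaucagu
miR-98: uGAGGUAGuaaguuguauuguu
let-7a: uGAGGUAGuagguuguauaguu
The last 2 are the arms of 1 hairpin, whose probes behaved differently:
miR-126*: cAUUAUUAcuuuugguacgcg
miR-126: uCGUACCGugaguaauaaugc

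Each array carried 9 spots for each of 334 miRNA probes, 614 empty spots and control probes. The empty spots gave each array a limit, their 95th percentile, and a probe counted as detected where over 0.5 of its spots exceeded it. The limit was 43.0, 53.6 and 31.6 scanner units on control arrays 1 to 3 and 33.7, 73.3 and 54.1 on 2-day arrays 1 to 3, and the brightest spot of an array reached 56151 to 62914. Log2 intensities correlated across probes with r between 0.971 and 0.996 over all pairs of the 9 arrays. The lowest correlation was between 2 of the 2-day arrays. The median SD of a probe was 0.25 log2 units among 2-day arrays, 0.17 among control arrays and 0.12 among 7-day arrays. Of the 178 tested probes, 6 lay more than 1 log2 unit below both other arrays of their group on 2-day array 1, and 6 lay that far above both others on control array 1.

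The labelled tissue carried its defining miRNAs on every array. The probe of miR-499 read 14.36, 14.38 and 14.33 log2 units on control arrays and 14.25, 14.20 and 14.33 on 2-day arrays. The groups overlapped, and the difference was -0.09 ± 0.07 (log2, standard error of the limma fit, n = 3 arrays per group). The differences of miR-1 and miR-206 were -0.01 ± 0.06 and 0.01 ± 0.06. Both probes lay at the top of the range, where quantile normalisation fixes the values. The probe named miR-208, whose target matches miR-208a within the span of the cardiac myosin gene Myh6, was detected on 2 control arrays and not well above background on any 2-day array.

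No miRNA was detected on all 3 arrays of one group and on none of the other. Detection on all 6 arrays was found for 143 of the 334 probes, on none for 130 and on some for 61. The control arrays had 172, 157 and 184 detected probes and the 2-day arrays 149, 160 and 178. These counts overlapped, and the mean difference of -8.67 probes gave p = 0.5 in an exact two-sided permutation test over arrays, whose smallest possible p is 0.1. A set of 6 probes was detected on all 3 control arrays and on 2 of the 3 2-day arrays. They were miR-210, a hypoxia-induced miRNA, miR-224, miR-292-5p and the predicted miRNAs MM_105, MM_234 and MM_302. No probe showed the reverse. The means of these 6 probes did not all fall: the log2 differences were 0.86 for miR-292-5p, 0.55 for MM_234 and 0.02 for miR-224. They were -0.05 for miR-210 and -0.43 for MM_105. The empty-spot limit ran from 33.7 to 73.3 over the 2-day arrays, and its part in these counts was not tested.

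Most measured miRNAs differed little between the groups. The median absolute log2 difference over the 178 tested probes was 0.11, and 135 of them differed by less than 0.25. Of all tested probes 107 had a lower mean and 71 a higher mean after 2 days, with a median of -0.05. At a Benjamini-Hochberg adjusted p under 0.05 in the limma fit, 1 probe was lower and 0 were higher, which is 0.562% of the probes tested. At an unadjusted p under 0.05 there were 12, or 6.74%, of which 7 were higher (3.93%) and 5 lower (2.81%). That split turned on the scaling: median centring gave 3 higher and 4 lower, and log2 intensities without normalisation gave 8 higher and 1 lower. On normalised values, every 2-day array lay on one side of every control array for 14 probes, or 7.87%, 10 below (5.62%) and 4 above (2.25%). In the deposited brightness before any normalisation the same count was 1 below (0.562%) and 13 above (7.3%). Without normalisation the median difference of all tested probes was 0.07, a shift of 0.12 from the normalised median. Of the 14 probes that did not overlap after normalisation, miR-333, MM_264 and miR-10a were also free of overlap in the deposited brightness.

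**Figure D1:**
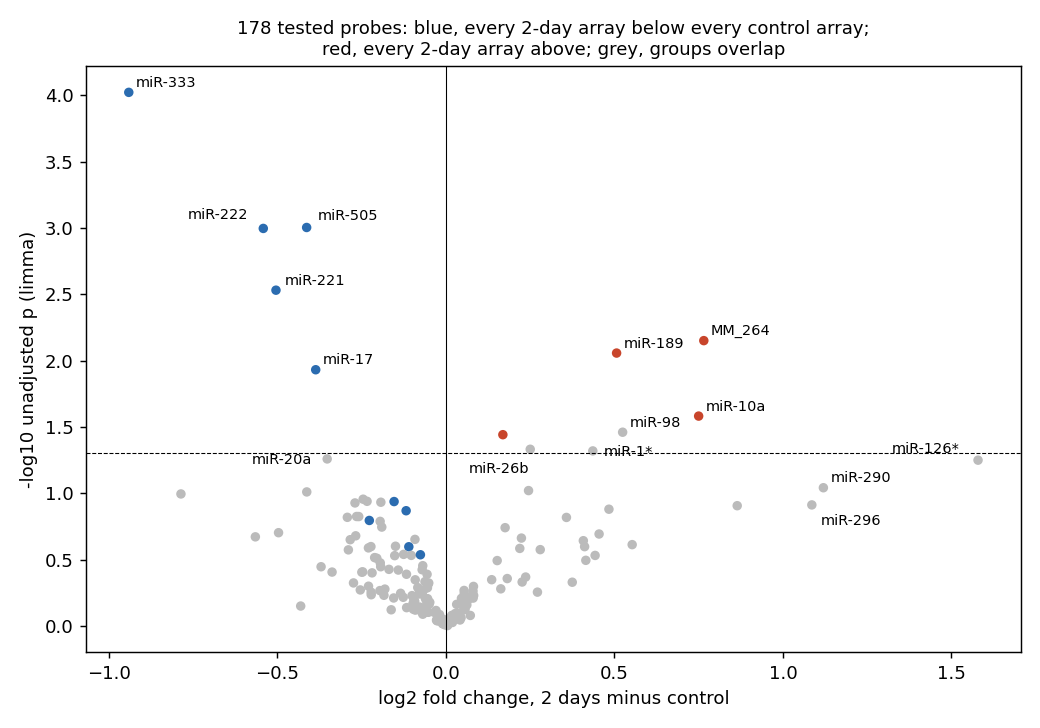
For 178 tested probes, the log2 difference of 2 days against control (horizontal axis) is plotted against -log10 of the unadjusted limma p (vertical axis), with a dashed line at the 0.05 level. MiR-333 stands alone at the upper left, most probes crowd around 0, and the largest positive differences (miR-126*, miR-290 and miR-296) lie below the line.

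The 1 miRNA that fell was miR-333, a rat miRNA for which no matching entry was found in the RefSeq table of rat miRNAs. Its probe read 121.9, 116.2 and 99.4 scanner units on the control arrays and 42.4, 76.8 and 65.9 on the 2-day arrays. All 3 suspended samples were dimmer than all controls before and after normalisation. After normalisation the values were 7.23, 7.22 and 7.27 log2 units in controls and 6.58, 6.18 and 6.13 after 2 days. The fall was -0.94 ± 0.13 log2 units (95% interval -1.24 to -0.64, adjusted p = 0.017, limma with Benjamini-Hochberg adjustment), or 1.92-fold. The 2-day readings were close to the empty-spot limits of 33.7, 73.3 and 54.1 on those arrays, so the depth of the fall is poorly fixed. At 7 days the probe read 6.79, 6.73 and 6.57, between the other groups. The difference of 7 days from 2 days was 0.40 ± 0.13 with an adjusted p of 0.392.

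The call of miR-333 depended on the scaling and on single arrays, although its sign did not. Its difference lay between -2.08 and -0.72 under 25 alternatives and was called in 14 of them. With the arrays scaled otherwise, its adjusted p (limma) was 0.521 under 75th percentile centring, 0.374 under median centring on detected probes and 0.0927 without normalisation. The adjusted p of miR-333 (limma) was 0.0905, 0.0844 and 0.118 without control arrays 1, 2 and 3. It was 0.079 and 0.0705 without 2-day arrays 2 and 3, 0.0525 and 0.0651 without 7-day arrays 1 and 2, and 0.000967 without 2-day array 1. Fitting the 6 arrays of these groups alone gave -0.85 with an adjusted p of 0.18. The authors' deposited table listed miR-333 at 79, 83 and 115 in controls and 32, 21 and 15 after 2 days.

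**Figure D2:**
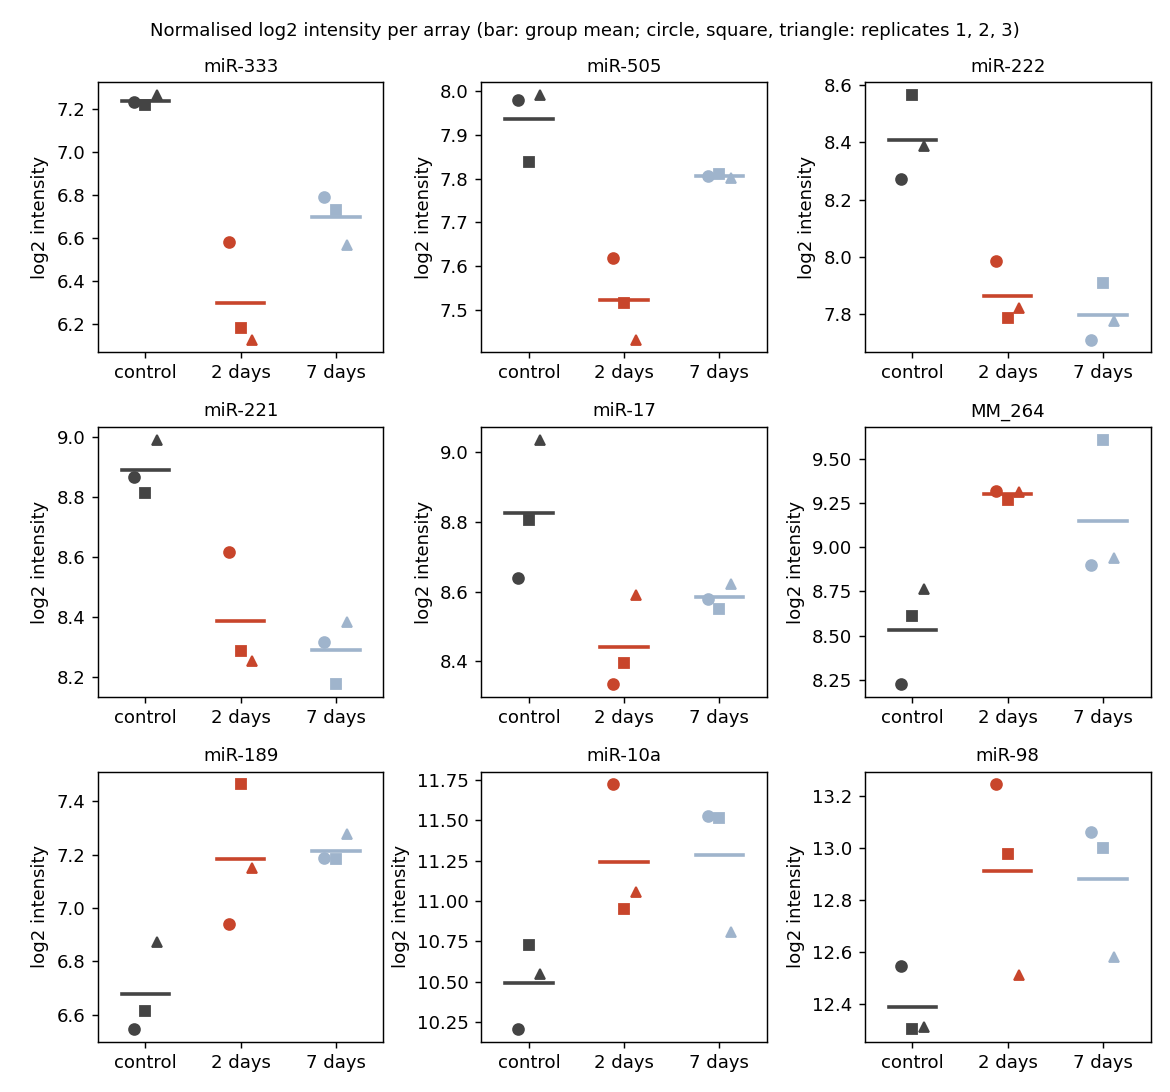
Normalised log2 intensity of 9 probes is plotted for each array by group, with circles, squares and triangles for replicates 1, 2 and 3 and a bar at each group mean. In the panels of miR-333, miR-505, miR-222, miR-221 and miR-17 all 2-day points lie below all control points, and in those of MM_264, miR-189 and miR-10a they lie above.

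The paired miRNAs miR-221 and miR-222 had lower means after 2 days, without passing the adjusted threshold. They restrain the cell cycle inhibitor p27 and decline as myoblasts differentiate, and they are also abundant in endothelium. MiR-222 read 8.27, 8.57 and 8.39 log2 units in controls and 7.99, 7.79 and 7.82 after 2 days. MiR-221 read 8.87, 8.81 and 8.99 in controls and 8.62, 8.29 and 8.25 after 2 days. For both, every 2-day array was below every control array. The differences were -0.54 ± 0.11 (95% interval -0.79 to -0.30, adjusted p = 0.0599, limma) for miR-222 and -0.50 ± 0.12 (-0.78 to -0.23, adjusted p = 0.131, limma) for miR-221.

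In the deposited brightness the groups overlapped for both. MiR-222 read 287.2, 304.1 and 241.5 scanner units in controls and 148.1, 258.2 and 266.3 after 2 days. MiR-221 read 445.4, 377.4 and 350.3 in controls and 228.6, 390.7 and 362.6 after 2 days. For both, 2-day array 1 was the dimmest of the 6 arrays and the other 2-day arrays lay among the controls. Without 2-day array 1 the normalised differences were -0.61 for miR-222 and -0.62 for miR-221, with adjusted p of 0.04 and 0.0318 in limma. Without normalisation they were -0.33 and -0.27, with adjusted p of 0.994 for each. The authors' deposited table gave miR-221 as 437, 395 and 400 in controls and 301, 291 and 292 after 2 days. It gave miR-222 as 270, 307 and 276 in controls and 203, 162 and 191 after 2 days, again without overlap.

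Both miRNAs lie close together on the plus strand of the X chromosome in the GRCr8 rat assembly, miR-222 at chrX:6022682-6022702 and miR-221 at chrX:6023246-6023268. Both lie within the spans of 2 annotated long noncoding RNAs, LOC120099382 and LOC120099384. At 7 days the differences from control were -0.61 for miR-222 and -0.60 for miR-221. Because both suspension groups were set against the same 3 controls, the 2-day and 7-day values share their baseline.

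MiR-505 had a lower mean after 2 days and, like miR-222, narrowly missed the adjusted threshold. It read 7.98, 7.84 and 7.99 log2 units in controls and 7.62, 7.52 and 7.43 after 2 days, with no overlap. The difference was -0.41 ± 0.08 (95% interval -0.60 to -0.23, adjusted p = 0.0599, limma). The adjusted p of miR-505 was 0.04 without 2-day array 1 and 0.994 without normalisation, where the difference was -0.21. In the deposited brightness it read 228.8, 177 and 176.8 in controls and 112.8, 213.6 and 186.7 after 2 days, so those groups overlapped. At 7 days its mean differed by 0.28 ± 0.08 from that at 2 days (adjusted p = 0.392, limma).

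MiRNAs of the miR-17 family, which promote proliferation and are abundant in dividing cells, had lower means throughout. All 5 tested members with the seed AAAGUGC were lower after 2 days, with a median of -0.29 against -0.05 over all tested probes, and 0 passed the adjusted threshold. MiR-17 read 8.64, 8.81 and 9.04 log2 units in controls and 8.33, 8.40 and 8.59 after 2 days. Every 2-day array lay below every control array, and the difference was -0.39 ± 0.12 (adjusted p = 0.298, limma). In the deposited brightness miR-17 read 384.1, 374.3 and 366.1 in controls and 183.9, 417.5 and 454.9 after 2 days, where the 2-day arrays stood on both sides of the controls.

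The differences of the other members were smaller relative to their errors. MiR-20a read 8.83, 9.23 and 9.45 in controls and 8.96, 8.67 and 8.82 after 2 days, a difference of -0.35 ± 0.16. MiR-106b read 9.21, 9.26 and 9.24 in controls and 8.75, 8.74 and 9.33 after 2 days, a difference of -0.29 ± 0.18. In miR-106b the third 2-day array was the highest of the 6, and in miR-20a the first control array lay within the 2-day range. MiR-93 was lower on all 2-day arrays, from 8.01, 8.06 and 8.02 to 7.61, 7.80 and 7.99, with a difference of -0.23 ± 0.15. The targets of these probes are alike, so some of their signal may be shared.

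The family is spread over 3 genomic clusters, and the lower means were not uniform along them. At chr15:98587861-98588622 (GRCr8, plus strand) lie miR-17, miR-18, miR-20a, miR-19b and miR-92, all 5 with lower means and a median of -0.35. There miR-19b differed by -0.37 ± 0.38 and miR-92 by -0.10 ± 0.29, so their errors exceeded or matched any shift. At chr12:22156652-22157123 (minus strand, within the span of Mcm7, a replication helicase gene) miR-106b and miR-93 were lower while miR-25 differed by 0.06 ± 0.13. The probes of miR-17, miR-19b and miR-92 also match the paralogous cluster on the X chromosome that holds miR-20b, so the arrays cannot assign their signal to one locus.

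**Figure D3:**
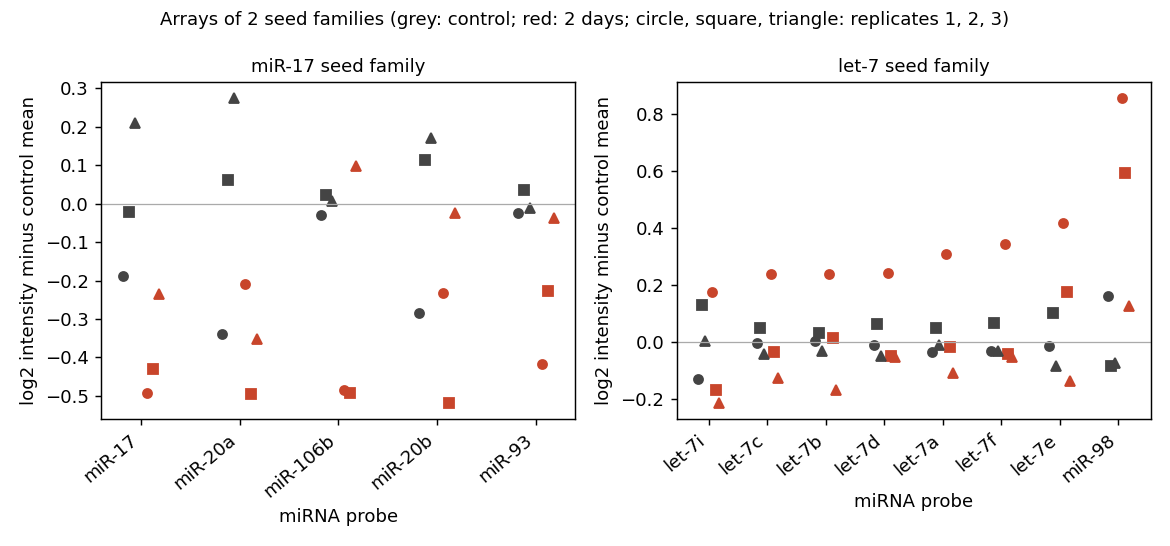
For 2 seed families, the log2 intensity of each array minus the probe's control mean is plotted by probe, grey for control and red for 2 days, with circles, squares and triangles for replicates 1, 2 and 3. In the miR-17 family most 2-day points lie below 0, whereas in the let-7 family the 2-day circles (array 1) lie above the other 2-day points for every member.

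The let-7 family, whose members accumulate in differentiated tissue, showed small differences apart from miR-98. Of the 8 tested members with the seed GAGGUAG, 7 had higher means and 1 lower, with a median of 0.05. The higher means came with 2-day array 1, which was the highest of the 3 suspended arrays for each of the 8 members. MiR-98 read 12.55, 12.30 and 12.31 log2 units in controls and 13.24, 12.98 and 12.51 after 2 days. The groups overlapped by the third 2-day array, and the difference was 0.52 ± 0.21 (adjusted p = 0.644, limma).

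MiR-98 did separate the groups in deposited brightness, at 5206, 5046 and 3972 scanner units in controls and 8349, 8064 and 7049 after 2 days. Its difference was 0.73 without normalisation (adjusted p = 0.0927, limma) and 0.34 without 2-day array 1. The authors' deposited table listed miR-98 at 5876, 5082 and 4662 in controls and 9638, 8456 and 6693 after 2 days, also without overlap. MiR-98 lies at chrX:24460663-24460684 (GRCr8, plus strand) beside a copy of let-7f at chrX:24460052-24460073, both within the span of Huwe1, a ubiquitin ligase gene. The let-7f probe, which also matches a locus on chromosome 17, differed by 0.08 ± 0.12.

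Among the miRNAs with higher means, the predicted miRNA MM_264 gave the lowest p-value. Its probe read 8.22, 8.61 and 8.76 log2 units in controls and 9.32, 9.27 and 9.32 after 2 days. The 2-day arrays lay close together and above every control. The difference was 0.77 ± 0.21 (95% interval 0.28 to 1.25, adjusted p = 0.252, limma), or 1.70-fold. In the deposited brightness it read 280.8, 319.9 and 302.2 in controls and 398.5, 746.2 and 716.6 after 2 days, again without overlap. No match for this target was found in the RefSeq miRNA table, so no locus is given, and at 7 days its difference from control was 0.62.

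MiR-10a, a miRNA encoded among the HoxB genes and found in smooth muscle and fibroblasts, had higher values on all 2-day arrays. It read 10.21, 10.73 and 10.55 log2 units in controls and 11.72, 10.95 and 11.06 after 2 days. The difference was 0.75 ± 0.27 (95% interval 0.12 to 1.38, adjusted p = 0.583, limma), and without 2-day array 1 it was 0.52. The deposited brightness of miR-10a was 1077, 1646 and 1219 scanner units in controls and 2500, 2233 and 2145 after 2 days, so the groups stood apart on that scale too. Its locus is chr10:81779730-81779752 on the plus strand of GRCr8. MiR-10b, its relative among the HoxD genes, gave 11.64, 12.33 and 12.16 in controls and 12.65, 11.90 and 12.07 after 2 days, a difference of 0.16 ± 0.24.

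The 2 arms of the miR-24 hairpin on chromosome 17 had opposite signs. The probe named miR-189 carries the 5′ arm, which RefSeq names rno-miR-24-1-5p, at chr17:1818710-1818731 (GRCr8, minus strand). It read 6.55, 6.61 and 6.87 log2 units in controls and 6.94, 7.46 and 7.15 after 2 days. All 2-day arrays were higher, by 0.51 ± 0.15 on average (adjusted p = 0.260, limma). MiR-24 itself, the 3′ arm, which also derives from a locus on chromosome 19, read 13.82, 13.90 and 13.93 in controls and 13.63, 13.75 and 13.79 after 2 days. There all 2-day arrays were lower, by -0.15 ± 0.09 (adjusted p = 0.873, limma). The deposited brightness overlapped between groups for both arms. That of miR-189 was 68.3, 80.2 and 69.0 in controls and 59.5, 208.6 and 155.1 after 2 days. The neighbours miR-23b and miR-27b differed by -0.06 ± 0.06 and -0.08 ± 0.07.

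A further pair of probes had an unadjusted p under 0.05. MiR-1*, the passenger arm of miR-1, read 6.03, 6.51 and 5.95 log2 units in controls and 6.46, 6.81 and 6.53 after 2 days. It was detected on 2 arrays of each group, and its difference was 0.44 ± 0.19 (adjusted p = 0.711, limma). MiR-26b, which acts with miR-26a in myoblast differentiation, read 13.87, 13.74 and 13.75 in controls and 14.15, 14.13 and 13.84 after 2 days, a difference of 0.25 ± 0.11 (adjusted p = 0.711, limma). The groups overlapped for both after normalisation, while the deposited brightness of miR-26b did not overlap (12390 to 14017 in controls, 15391 to 17247 after 2 days). MiR-190, with an unadjusted p of 0.0362 in limma, was detected on no control array and on 1 2-day array, so no minimum fold is given. Its deposited brightness overlapped, at 37.3, 41.7 and 29.6 in controls and 32.4, 69.7 and 63.1 after 2 days.

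The largest mean difference belonged to miR-126*, the passenger arm of the endothelial miR-126 hairpin, and the groups overlapped. Its probe read 9.76, 8.07 and 8.47 log2 units in controls and 11.23, 11.06 and 8.74 after 2 days. The third 2-day array lay below the first control array. The difference was 1.58 ± 0.70 (95% interval -0.05 to 3.21, adjusted p = 0.715, limma). The authors' deposited table listed miR-126* at 1, 218 and 286 in controls and 2550, 2271 and 373 after 2 days, without overlap, and its difference on that table was 5.03, with the control listed at 1 included. The deposited brightness of miR-126* was 918.8, 214.7 and 254.3 in controls and 1869.7, 2407.2 and 514.3 after 2 days. The main arm miR-126, from the same hairpin within the span of Egfl7, an endothelial gene, read between 16180 and 19152 on these 6 arrays and differed by -0.07 ± 0.08.

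A control probe of the chip moved with miR-126* from array to array. The probe named a-PUC2MM2d read 1883.1, 243.9 and 198.2 scanner units on the control arrays and 3939.4, 3624 and 348.4 on the 2-day arrays. On the 7-day arrays it read 4259.2, 4123.9 and 5792.4, where miR-126* read 4159.8, 4864.2 and 3208.4. The 4 arrays dimmest in miR-126* were control arrays 1 to 3 and 2-day array 3, and the same 4 were dimmest in this control probe. The control probe a-PUC2PM stayed between 12418 and 15958 on the control and 2-day arrays. The part of this control signal in the miR-126* values was not tested.

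**Figure D4:**
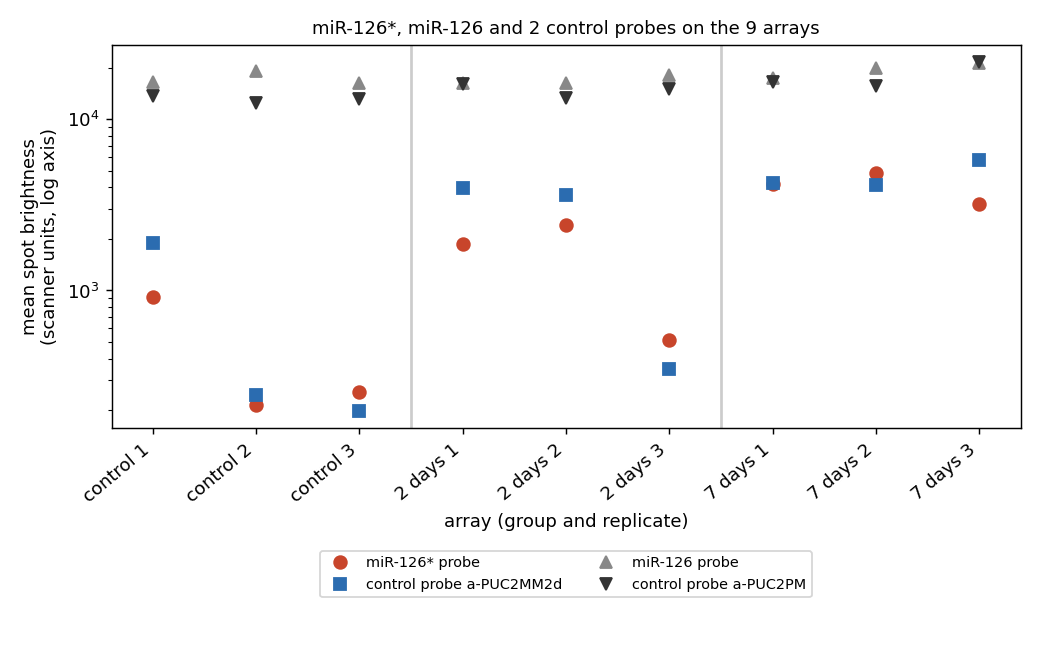
Mean spot brightness in scanner units, on a log axis, is plotted for the probes of miR-126* (red), miR-126 (grey) and 2 control probes (blue and black) on each of the 9 arrays. MiR-126* and a-PUC2MM2d are both low on control arrays 2 and 3 and on 2-day array 3 and higher elsewhere, while miR-126 is at or above 16180 throughout.

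Several other large differences rested on 2-day array 2. MiR-290, a miRNA best known from embryonic stem cells in mice, read 8.52, 7.78 and 7.56 log2 units in controls and 7.99, 10.49 and 8.74 after 2 days, a difference of 1.12 ± 0.58. Its neighbour miR-292-5p read 6.21, 6.29 and 6.10 in controls and 6.06, 8.38 and 6.76 after 2 days, a difference of 0.86 ± 0.50. MiR-296 read 5.98, 6.89 and 6.03 in controls and 6.02, 8.72 and 7.42 after 2 days, a difference of 1.09 ± 0.63. In each, 2-day array 1 lay within or below the control range and array 2 more than 1 log2 unit above both other suspended arrays. Without that array the difference of miR-290 was 0.41.

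The predicted MM_105 was the 1 other tested probe with such a gap on 2-day array 2. Its deposited brightness was 858.9, 145.6 and 103.4 in controls and 36.0, 1018.1 and 158.9 after 2 days, and its difference was -0.43 ± 1.10. The 4 targets had G and C contents of 31.8% to 66.7% with a median of 46.8%, against a median of 46.6% over all tested probes. That array also had the highest empty-spot limit, 73.3 scanner units, and the part of this in the values was not tested. The predicted Mmj_4 read 7.71, 6.68 and 5.87 log2 units in controls and 5.84, 6.09 and 5.96 after 2 days, and was detected on 2 control arrays and on no 2-day array. The groups overlapped, since control array 3 lay below 2-day arrays 2 and 3. Because detection was not complete among the controls either, no minimum fold is given. The difference rested on control array 1: without it the fitted difference of Mmj_4 went from -0.79 to -0.31.

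MiRNAs were also described by 16 lists of known families and cell types, and in none did a member pass the adjusted threshold. Medians moved with the scaling: without normalisation the list of miR-17 to miR-92 clusters had a median of -0.04, the myoblast list 0.05 and the endothelial list -0.04, against 0.07 over all tested probes. Of 7 striated muscle miRNAs 3 had higher and 4 lower means, with a median of -0.01 against -0.05 over all tested probes. That median is the value of miR-1, whose probe lay where quantile normalisation fixes the values. Over the 25 alternatives the median of this list ran from -0.21 to 0.01. Of 12 myoblast and regeneration miRNAs 4 were higher and 8 lower, with a median of -0.13, and miR-221, miR-222 and miR-542-3p lay below all controls on every 2-day array. That is 3 of 12, where 5.62% of all tested probes did so. MiR-221 and miR-222 are neighbours with the same seed. MiR-542-3p, at means of 6.14 in controls and 6.02 after 2 days, lay near the lowest detected values (5.92 to 6.25 log2 units over the 6 arrays). In the deposited brightness only miR-333, which is not in this list, lay below all controls on every 2-day array. MiR-489, which keeps mouse muscle stem cells quiescent, differed by -0.27 ± 0.15. The X-linked cluster that holds miR-503, miR-424, miR-450 and miR-542, induced during myoblast differentiation, had 4 higher and 3 lower means and a median of 0.01. There miR-450 differed by 0.22 ± 0.17 and miR-503 by 0.08 ± 0.15.

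Lists of families with broad roles lay near 0. The miR-30 family (6 tested) had 3 higher and 3 lower means, with a median close to 0 and a range of -0.06 to 0.08. Of the miR-29 family, which represses collagens, miR-29b read 11.61, 11.13 and 11.85 in controls and 11.15, 12.21 and 12.46 after 2 days, a difference of 0.41 ± 0.33 with overlap. MiR-29a differed by -0.07 ± 0.10. The miR-15 and miR-103 families act on the cell cycle and metabolism. Their list had 1 higher and 6 lower means of 7, with a median of -0.10. It holds the probe named miR-322, whose target matches the 3′ arm of the miR-322 hairpin. The 5′ arm, read by the probe named miR-424, carries the miR-15 seed and is not in the list. The 5 tested probes with that seed, AGCAGCA, had 2 higher and 3 lower means and a median of -0.05.

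Markers of other cell types were measured on the same arrays. The 3 tested blood cell markers all had lower means, with a median of -0.50, which is the value of miR-451. The brightest of them, miR-150, differed by only -0.03 ± 0.19. MiR-144 and miR-142-3p were not detected on any control or 2-day array. MiR-451, of red cells, read 10.49, 9.65 and 9.47 in controls and 8.69, 9.79 and 9.63 after 2 days, a difference of -0.50 ± 0.35 that came with the low first 2-day array. MiR-223, of myeloid cells, read 9.48, 10.02 and 11.29 in controls and 10.04, 9.50 and 9.55 after 2 days, where the third control array stood above the rest. Its difference was -0.57 ± 0.42. Mean log2 intensity over the 3 blood miRNAs was 10.75, 10.77 and 11.10 on control arrays and 10.55, 10.52 and 10.47 on 2-day arrays. The median of the blood cell markers rested on few arrays: it was -0.19 without control array 1, -0.05 without control array 3 and -0.24 without 2-day array 1. The mean over the list was lower on every 2-day array, and its part in the other differences was not tested.

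Of 7 tested endothelial miRNAs 2 were higher and 5 lower, with a median of -0.23. MiR-221 and miR-222 belong to this list as well as to the myoblast list. The median is the value of the miR-322 probe, and miR-424, from the other arm of that hairpin, differed by 0.02 ± 0.09. MiR-126 differed by -0.07 ± 0.08. Mean log2 intensity over the 7 was 9.86, 9.66 and 9.63 on control arrays and 9.91, 9.77 and 9.46 on 2-day arrays, which overlapped. The inflammation and stress miRNAs had lower means for all 5 tested members, with a median of -0.23, or -0.05 without 2-day array 2. Among them miR-21, induced by injury and fibrosis, differed by -0.23 ± 0.33, and miR-146, a brake on inflammatory signalling, by -0.25 ± 0.14. Smooth muscle and fibroblast miRNAs had 5 higher and 8 lower means of 13, with a median of -0.02. Of 6 tested nerve miRNAs 2 were higher and 4 lower, with a median of -0.16, or 0.06 without 2-day array 2 for these nerve markers. MiR-137, miR-138, miR-129 and miR-7b were not detected on any control or 2-day array.

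Lists that served as a reference for tissue of other origin were also close to the whole. Of 6 tested epithelial and gland miRNAs 4 were higher and 2 lower, with a median of 0.01. MiR-141, miR-429 and miR-96 were not detected on any control or 2-day array. The miRNAs of the imprinted Dlk1-Dio3 region, which is active in muscle stem cells and during growth, had 5 higher and 14 lower means of 19 tested, with a median of -0.06. Their differences ran from -0.22 to 0.41. The 17 tested probes at chr6:134543460-134579250 (GRCr8, plus strand) had 13 lower and 4 higher means with a median of -0.03.

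**Figure D5:**
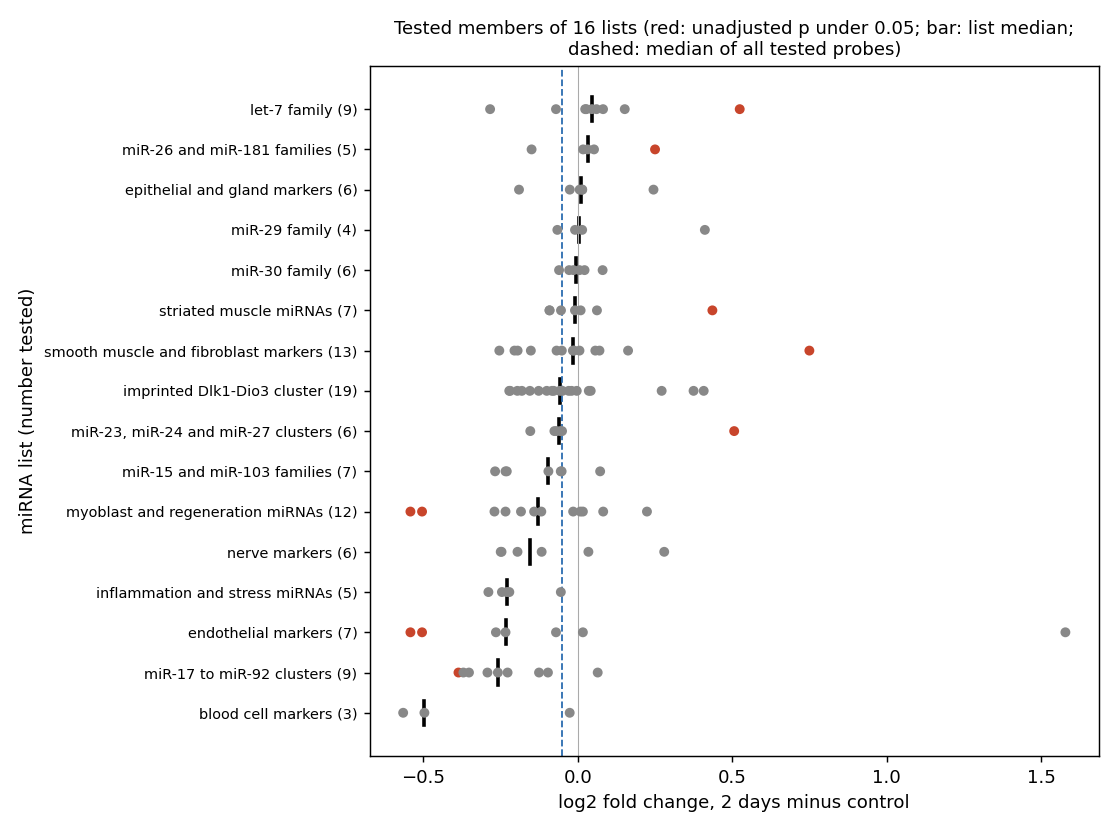
Each point is the log2 difference of 2 days against control for 1 tested probe, by miRNA list, with list medians as bars, red points for an unadjusted p under 0.05 and the dashed line at the median of all 178 tested probes. Most medians lie between -0.26 and 0.05, and the median of the 3 blood miRNAs lies at -0.50. Single points, such as miR-126* at 1.58, lie far from their list.

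Neighbouring probes shared a sign in some clusters and not in others. Of 38 clusters with at least 2 tested probes within 10 kb of each other in GRCr8, 15 had lower means for all members, 5 higher means for all members and 18 were mixed. Some clusters repeat the same readings. The probes miR-128a and miR-128b match the same miRNA and form clusters on chromosomes 8 and 13. Those of miR-17, miR-19b and miR-92 enter clusters on chromosomes 15 and X, and other clusters are the arms of a single hairpin, such as miR-22 and miR-22*. With these repeats and with 60.1% of all tested probes lower, the counts are read as a description. Of the 22 seed groups with at least 2 tested probes, the pair miR-221 and miR-222 had the lowest median (-0.52), followed by the miR-17 seed at -0.29.

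Between 2 and 7 days no miRNA passed the adjusted threshold. In the limma contrast of 7 days against 2 days, 0 of 178 probes passed an adjusted p of 0.05, and 10, or 5.62%, had an unadjusted p under 0.05. These 10 were all higher at 7 days and included miR-333 and miR-505, and with median centring 10 probes passed the adjusted threshold. MiR-7* had the lowest p, with 7.23, 6.90 and 7.00 log2 units after 2 days and 7.49, 7.67 and 7.35 after 7 days, a difference of 0.46 ± 0.13 (adjusted p = 0.392, limma). MiR-489 read 6.88, 6.67 and 7.01 after 2 days and 7.33, 7.36 and 7.38 after 7 days, a difference of 0.50 ± 0.15, and its controls read 7.29, 6.78 and 7.29. For both, every 7-day array lay above every 2-day array.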

How the data were processed

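MiRNAs were measured on 1-colour (Cy5) microfluidic chips of a service provider. The deposited scanner files give a linear mean intensity and a standard deviation for each spot, per the file headers. How images were read and background was treated is not given in the sources used here. A deposited value table of the authors holds intensity values for 162 probes and served as an alternative. The number of arrays limits the precision: the median standard error was 0.17 log2 units.

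Spot intensity was corrected with normexp (offset 50, all spots). After log2 transformation, miRNA spots were quantile normalised and averaged over the 9 spots of a probe. Tested were the 178 probes found on all arrays of 1 or more of the 3 groups, 167 named rat miRNAs and 11 predicted ones. Group means were fitted over the 9 arrays by lmFit with eBayes (R 4.3.3, limma 3.58.1, tested on simulated data). Benjamini-Hochberg adjustment covered all 178 probes. Groups came from the titles. The files name no slide or scan batch.

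Probe names are those of the chip (miRBase 9.0, per the labels) and can be old. Of the 178 tested targets, 89 equalled a RefSeq mature miRNA (GRCr8), 60 overlapped one as a shorter or longer form, 9 lay within a hairpin and 20 had no match. Probes named were those past the adjusted threshold, the 20 with the smallest p, the 10 with the largest change, in each list the 3 brightest and those with an unadjusted p under 0.05, and neighbours or partner arms of these. Further list members were chosen after their values were seen. The samples, lists and rules were chosen with earlier results of these data known. Alternatives covered the normalisation, background, filter, spot summary, array weights, arrays left out, a replicate block and the authors' table.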

Additional observations from a re-analysis of the deposited data

Results flagged for a closer look

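A set of 15 spike and 5S control probes lay above the empty-spot limit on all 6 arrays. Of these, 2 were brighter on every 2-day array than on every control array, and 0 were dimmer in the same way. Of the 178 tested miRNA probes, 13 (7.3%) were brighter and 1 (0.562%) dimmer in this way in deposited brightness. The control probes were not among the tested probes, but their spots entered the background correction. The probe PUC2MM read 7146.1, 6552.1 and 7447.1 scanner units on control arrays and 9443.5, 8739 and 8326.1 on 2-day arrays, with means of 7048.5 and 8836.2. The probe PUC2PM read 8936.7, 8469.2 and 9640.3 on control arrays and 11831, 9874.1 and 10486.3 on 2-day arrays, with means of 9015.4 and 10730.5. The ratios of the means were 1.25 and 1.19. Their part in the miRNA values was not tested.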

How the results depend on the processing

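Across 25 alternatives, the 66 named probes gave 1638 values, of which 1620 kept their side of the threshold. A call was gained in 7 and lost in 11, and 0 reversed where either fit had an unadjusted p under 0.05. Only miR-333 was called in the fit above, so all 11 lost calls were its own and the other named probes had none to lose. The sign was kept throughout by 33 probes. The count of called probes at 2 days, 1 in the fit above, was 0 under 75th percentile centring, no normalisation, median centring on detected probes and the 6 arrays alone, 2 with no detection filter and 4 with array weights, and the named probes gave the same counts. Leaving out 1 array gave 0 to 4. Array weights gave 2-day array 1 the lowest weight, 0.229. Members of the lists passed in 0 cases above, in 2 lists with array weights, and in 0 to 2 lists with 1 array left out. Between 7 and 2 days, median centring called 5 of the named probes. Counts of probes whose groups did not overlap, 4 higher and 10 lower above, were 13 and 1 in deposited brightness, 11 and 1 without normalisation and 7 and 3 with median centring on detected probes, chosen after seeing the data. Replicate numbers did not consistently pair the arrays. Correlations of deviations for replicates 1, 2 and 3 were -0.40, -0.12 and 0.12 between control and 2-day arrays. They were 0.013, -0.172 and -0.188 between control and 7-day arrays, and 0.225, -0.175 and 0.35 between 2-day and 7-day arrays. A replicate block left 1 probe called, miR-333, at an adjusted p of 0.0492 in limma. The causes were not tested. Dim probes, miR-333 among them, lay near the empty-spot limit, which limits how well their differences are measured.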
